A study of Homo sapiens with 4 samples.

Results

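The MYC, MAX and MLX network is a family of transcription factors that bind DNA as pairs, and the 10 members described here are MYC, MAX, MXD1, MXD4, MXI1, MNT, MGA, MLX, MLXIP and MLXIPL. They were chosen by name, and all 10 were found among the 35767 gene rows of the count table and passed the filter on low counts, which 20098 rows passed in all. The table holds RNA sequencing counts of SAS cells, a human tongue squamous carcinoma line. There were 2 libraries labelled siNAT10, given as NAT10 knockdown for replicate 1 and as NAT11 knockdown for replicate 2. They were set against 2 libraries labelled siControl, given as wild type. The names siNAT10 and siControl stand for libraries with those labels. The siRNA sequences and the time after transfection are not stated. The titles number the libraries as biological replicates, and whether each came from its own culture is not given, so p-values reflect variation among these 4 libraries alone. The title of the series sets the comparison in work on NAT10, an RNA acetyltransferase, and on DDIT4 mRNA in head and neck carcinoma.

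Members of the network share a basic region that contacts DNA and a helix-loop-helix leucine zipper that joins the partners. MYC pairs with MAX and activates genes of growth, ribosome assembly and metabolism, whereas the MXD proteins, MXI1, MNT and MGA pair with MAX and repress, mostly at the same E-box, CACGTG. MLX is the partner of MLXIP (MondoA) and MLXIPL (ChREBP), which activate genes when glucose phosphates rise, and it also pairs with MNT and some MXD proteins. In squamous carcinoma, as in most epithelial tumours, MYC is known as a driver of proliferation.

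Of the 10 members, 6 were lower in the libraries labelled siNAT10 (MLXIPL, MXD1, MNT, MAX, MLXIP and MYC), 1 was higher (MGA) and 3 did not pass the test (MLX, MXI1 and MXD4). Over all tested genes, 20.7% were called lower and 19.7% higher, 40.4% in all. The median log2 fold change of the members was -0.32, against -0.0079 over all tested genes. Calls rest on edgeR's quasi-likelihood test with Benjamini-Hochberg adjustment over all tested genes and a threshold of 0.05. Each log2 fold change is that of siNAT10 over siControl, so a negative one means lower in siNAT10. Levels of 1 gene between libraries are CPM, counts relative to the library total, on library sizes scaled by TMM factors. In bulk RNA, fewer cells with a transcript and less transcript per cell cannot be told apart.

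Total counts were 35896415 and 30794757 in the libraries labelled siNAT10, and 36341785 and 36068532 in siControl, where 3 counts equal 0.0825 to 0.0974 CPM. NAT10 mRNA was not called lower in the libraries labelled siNAT10, with 253 and 248 CPM, against 240.4 and 231 CPM in siControl (log2 fold change 0.09 ± 0.06 SE, edgeR adjusted p = 0.293). The sign of that difference turned with libraries scaled by their totals alone (-0.02). NAA40, also called NAT11, had 18.6 and 18.2 CPM, against 22.1 and 18.8 CPM (edgeR adjusted p = 0.255), and was called lower with that scaling (adjusted p = 0.049). A knockdown of either gene is thus not seen in these counts with TMM scaling, and directions are those of the libraries labelled siNAT10. Of 7 squamous epithelial markers, KRT17 was high at 543 and 586 CPM in siNAT10, against 822 and 866 CPM in siControl. KRT14, EPCAM, CDH1 and TP63 stood under 10 CPM in every library, KRT5 was near the floor, and KRT6A was not analysed here. Of the 5 markers tested, 3 were called lower in siNAT10 and 0 higher, KRT14 (-1.09), EPCAM (-0.99) and KRT17 (-0.58), with edgeR adjusted p-values of at most 2.59e-04. The values of CDH1 and TP63 were -0.48 and -0.85 and did not pass the test (edgeR adjusted p = 0.258 and 0.0979), and the median of the 5 was -0.85. The part of these markers' difference in the results on the members was not tested. Of 16 fibroblast, leukocyte and endothelial markers found, COL1A1 (20.1 to 28.8 CPM over the libraries) and PDGFRB (6.41 to 9.22 CPM) were above 4 CPM. PTPRC, CD79A, ITGAM, COL3A1, LUM, PDGFRA and KDR were near the floor. Of 4 fibroblast markers tested, 1 was called higher and 1 lower. Of 3 endothelial markers tested, 1 was called higher and 1 lower, with log2 fold changes from -2.29 to 3.04. Of 2 leukocyte markers tested, 0 were called.

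Sequences of the regions before the start sites are shown because the E-box is what joins the members. RefSeq promoters (GRCh38.p14, 250 bases before to 50 after a start) were matched for 9 of 10 members, all but MYC, with 14 windows. The motif CACGTG, which reads the same on both strands, was found in the windows of 3 members, MNT, MLX and MXD4. It was present in 7.26% of all 35116 windows, and 12.5% of 10468 matched tested protein-coding genes had it in at least 1 window. The bases around the motif are given 5′ to 3′ on the strand of the gene, with the E-box in capitals.
MNT (chr17:2401218-2401283, minus strand): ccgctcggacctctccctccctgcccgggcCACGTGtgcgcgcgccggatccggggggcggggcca
MLX (chr17:42567020-42567085, plus strand): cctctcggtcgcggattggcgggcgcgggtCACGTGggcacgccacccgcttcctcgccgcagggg
MXD4 (chr4:2262312-2262359, minus strand): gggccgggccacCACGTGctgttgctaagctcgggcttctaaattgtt
These 3 genes did not move alike, since MNT was called lower and MLX and MXD4 were not called. A match is a description of the letters and not evidence of binding.

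MYC itself, the activator of the network, was slightly lower. MYC (chromosome 8, 127735434 to 127741434, plus strand, GRCh38) had 107 and 104 CPM in siNAT10 replicates 1 and 2, against 125 and 133 CPM in siControl replicates 1 and 2. Both siNAT10 libraries lay below both siControl libraries. This gave a log2 fold change of -0.29 with an SE of 0.07 and a 95% interval from -0.43 to -0.15 (edgeR adjusted p = 1.76e-03), and the call held under each of 12 alternatives, with values from -0.40 to -0.24. No other row of the table shares its exons. PVT1, a long noncoding RNA gene beside MYC, had 6.01 and 6.37 CPM in siNAT10, against 8.88 and 9.7 CPM in siControl (log2 fold change -0.59 ± 0.14, edgeR adjusted p = 1.80e-03). It was the only 1 called of 5 tested long noncoding RNAs of the locus, in which small PVT1 rows overlap it. Without siControl replicate 2, 2 of them were called lower.

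MAX, the obligate partner of MYC and a partner of the repressors, was lower by a like amount. MAX (chromosome 14, 65006174 to 65102695, minus strand) had 37.2 and 32.3 CPM in siNAT10, against 41.3 and 48.2 CPM in siControl. The groups did not overlap, but the gap between the nearest libraries was smaller than the spread within siControl. MAX differed by -0.36 ± 0.09 on the log2 scale (here and further on ± is the SE, edgeR adjusted p = 3.61e-03). The call was lost without siNAT10 replicate 2 (-0.26, adjusted p = 0.0744, range over 12 alternatives 2.64e-06 to 0.0744) and held in the other 11 alternatives. The opposite-strand row RP11-840I19.3 shares 184 exon bases with MAX.

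**Figure D1:**
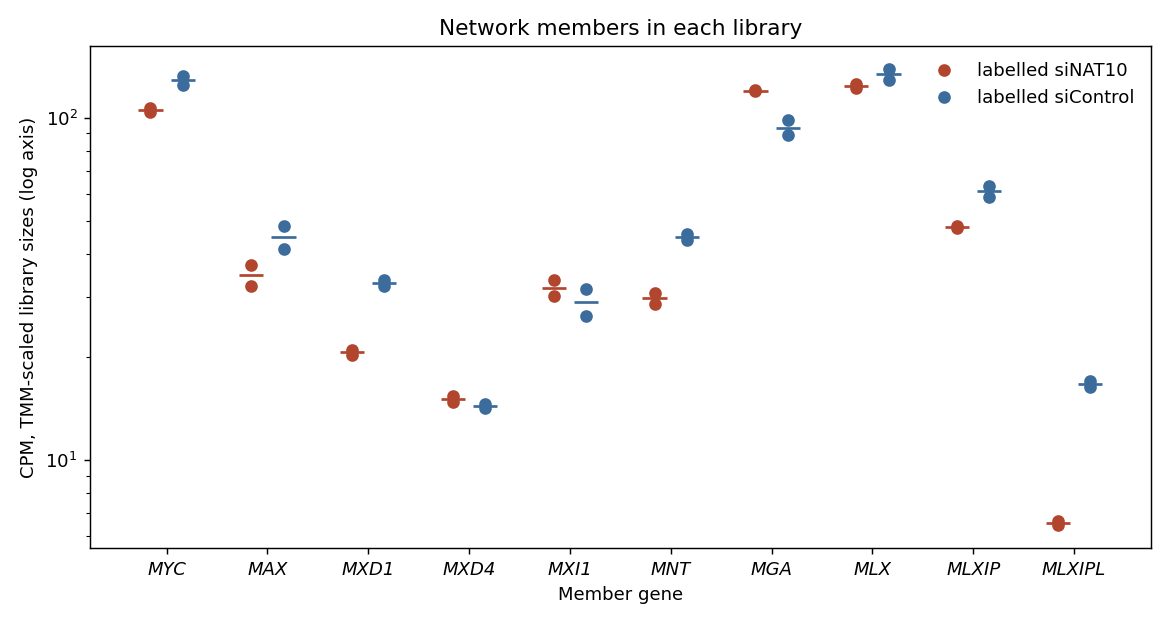
CPM of each member on a log axis, with 1 point per library, a bar at the mean of 2 libraries and the libraries labelled siNAT10 left of siControl. MXI1 is the member whose groups overlap, and MLXIPL has the widest gap, 6.65 and 6.44 CPM against 17.0 and 16.3 CPM.

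Among the repressors, MXD1 and MNT were lower by more than MYC and MAX, a difference not tested. MXD1, a repressor that rises as epithelial cells differentiate, lies on chromosome 2 (69897688 to 69942945, plus strand). It had 20.3 and 21.0 CPM in siNAT10, against 33.6 and 32.3 CPM in siControl. Its log2 fold change of -0.67 ± 0.09 (edgeR adjusted p = 4.88e-06) equals a difference of -37.4% with a 95% interval from -44.9% to -28.8%. MNT, the most widely expressed repressor of the family, lies on chromosome 17 (2384060 to 2401118, minus strand). It had 30.8 and 28.5 CPM in siNAT10, against 45.8 and 44.0 CPM in siControl. This was a difference of -33.9%, or -0.60 ± 0.08 in log2 units (edgeR adjusted p = 8.89e-06). For both genes the siNAT10 libraries were below the siControl libraries and the call held in all 12 alternatives, with values from -0.79 to -0.65 for MXD1 and from -0.71 to -0.54 for MNT.

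The other repressors of the MXD branch did not pass the test. MXI1 (chromosome 10, 110207605 to 110287365, plus strand) had 30.2 and 33.6 CPM in siNAT10, against 31.6 and 26.3 CPM in siControl. Its groups overlapped, and the log2 fold change of 0.14 had a 95% interval from -0.064 to 0.34 (edgeR adjusted p = 0.273). It was called higher without siControl replicate 1 (0.27, adjusted p = 0.0272, range over 12 alternatives 0.0272 to 0.937). MXD4 (chromosome 4, 2247432 to 2262294, minus strand) had 15.4 and 14.7 CPM in siNAT10, against 14.2 and 14.6 CPM in siControl. Its log2 fold change was 0.07, with a 95% interval from -0.15 to 0.29 (edgeR adjusted p = 0.646), and it turned to -0.04 with libraries scaled by their totals alone. The intervals still allow a difference of up to 26.7% for MXI1 and 21.9% for MXD4.

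MGA was the member that rose. MGA is the largest protein of the family, has a second DNA-binding domain of the T-box type, and is the scaffold of the Polycomb complex PRC1.6, which silences germline genes. MGA (chromosome 15, 41621224 to 41773081, plus strand) had 120.4 and 119.5 CPM in siNAT10, against 98.4 and 88.7 CPM in siControl. Both siNAT10 libraries were above both siControl libraries. MGA was thus higher by 28.2%, or 0.36 ± 0.07 in log2 units (edgeR adjusted p = 3.99e-04), with a 95% interval from 15.8% to 41.9%, and the call held in all 12 alternatives (0.25 to 0.43).

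In the MLX branch the nutrient sensors fell. MLXIPL, the sensor known best from liver and fat, lies on chromosome 7 (73593194 to 73624543, minus strand). It had 230 and 190 counts in siNAT10, against 649 and 605 counts in siControl, which are 6.65 and 6.44 CPM, against 17.0 and 16.3 CPM. The libraries of a group lay close together and far from the other group. MLXIPL was 2.55-fold lower, or -1.35 ± 0.12 in log2 units (edgeR adjusted p = 2.88e-08), and 3.74% of tested genes had a lower value. Over all tested genes, 5.62% were called lower by at least 2-fold. MLXIPL was the member with the widest difference in every one of 12 alternatives (-1.46 to -1.32), and no other row shares its exons.

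MLXIP, the sensor known best from muscle and proliferating cells, fell less. MLXIP (chromosome 12, 122078722 to 122147347, plus strand) had 48.3 and 47.7 CPM in siNAT10, against 63.3 and 58.8 CPM in siControl, with no overlap between groups. The difference of -0.35 ± 0.07 in log2 units passed the test (edgeR adjusted p = 9.01e-04) and held in all 12 alternatives. Per exon length, that is in TPM, counts per base of exon relative to their sum in a library, the level of MLXIP over that of MLXIPL was 2.52 and 2.57 in siNAT10, against 1.28 and 1.25 in siControl. This ratio of levels was formed after the values were seen and is given without a test.

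MLX, the partner of both sensors, was not called. MLX (chromosome 17, 42567068 to 42573239, plus strand) had 122 and 125.5 CPM in siNAT10, against 128.5 and 139 CPM in siControl. Its log2 fold change was -0.11, with a 95% interval from -0.25 to 0.03 (edgeR adjusted p = 0.198). It was called lower with libraries scaled by their totals alone (-0.22, adjusted p = 0.0112) and without siControl replicate 1 (-0.17, adjusted p = 0.0435), with adjusted p from 0.0112 to 0.601 over 12 alternatives. Scaling by totals alone moved the median of all tested genes to -0.12, and the MLX value under that scaling includes this shift.

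**Figure D2:**
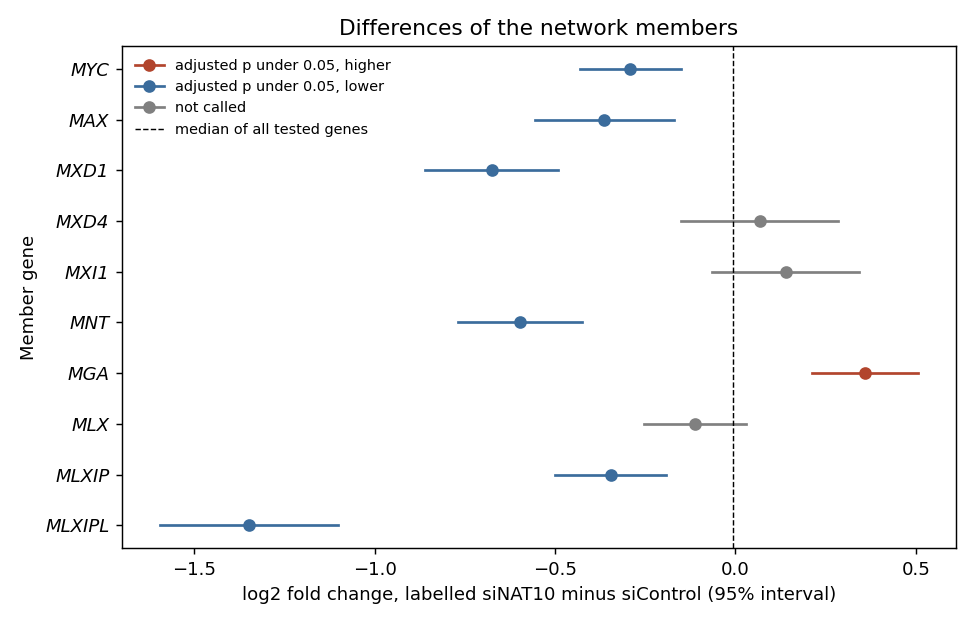
Log2 fold change of each member, siNAT10 minus siControl, as a point with its 95% interval, with the median of all tested genes dashed. The intervals of 6 members lie below 0, that of MGA lies above 0, and those of MXD4, MXI1 and MLX include 0.

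Overlapping rows limit what can be said of MLX and MXD1. PSMC3IP, a recombination factor gene on the opposite strand, shares 770 exon bases with MLX, which is 18.1% of the exon bases of MLX. It had 307 and 288 CPM in siNAT10, against 360 and 409.5 CPM in siControl (log2 fold change -0.37 ± 0.07, edgeR adjusted p = 3.22e-04). If its counts were spread evenly over its exons, those in the shared bases would equal 75.3% and 68.7% of the MLX count in siNAT10, against 83.8% and 88.1% in siControl. Level and direction of MLX can therefore not be told apart from those of PSMC3IP. SNRNP27, a spliceosome gene on the same strand, shares 237 bases with MXD1 and had 103 and 105.5 CPM in siNAT10, against 105 and 111 CPM in siControl (edgeR adjusted p = 0.596). Its even share would be 53.0% and 52.3% of the MXD1 count in siNAT10, against 32.6% and 35.8% in siControl. For MAX, MNT, MXI1 and MGA the even share of the overlapping row was at most 4.4%. Rows on the opposite strand are counted here as possible sources because 276 rows lying wholly inside exons of 1 opposite-strand gene had a median count density that was 0.532 of that of their host, and it was 0.3 for 93 such rows on the same strand. Those rows had at least 100 bases and hosts with at least 1000 counts over the 4 libraries.

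**Figure D3:**
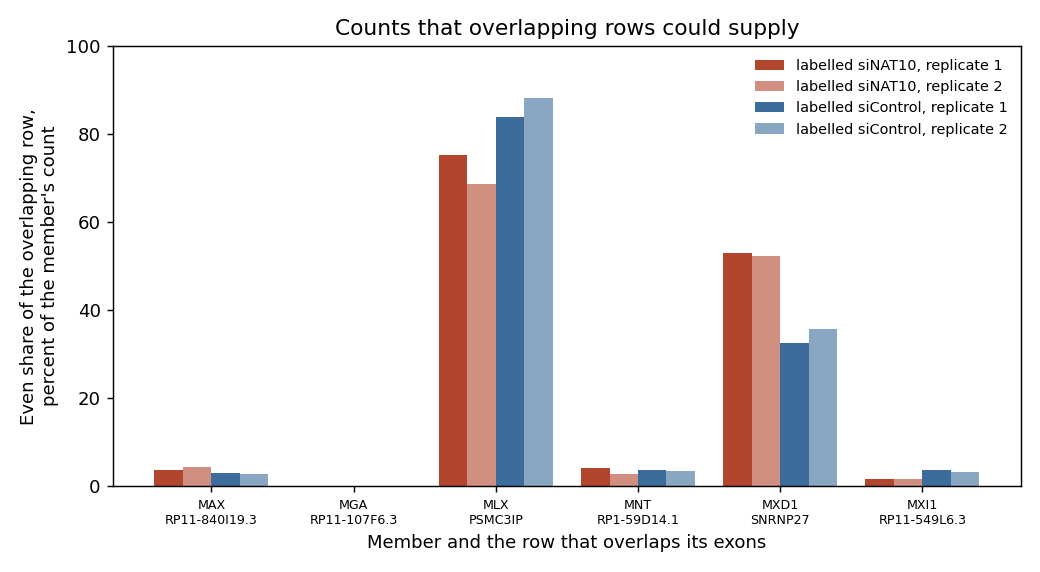
Share of a member's count that the overlapping row would supply if its counts were spread evenly over its exons, in percent, for each library. The bars of MLX stand between 68.7% and 88.1% and those of MXD1 between 32.6% and 53.0%, and all others are at most 4.4%.

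The order of levels among the members was read from TPM, since gene lengths differ. In siNAT10 MYC stood first with 103 and 96.2 TPM and MLX next with 82.7 and 82.1 TPM, and MLXIPL was last with 3.99 and 3.72 TPM. In siControl MYC again led with 136.5 and 142 TPM, followed by MLX with 99.0 and 104.5 TPM, and MXD4 was last with 6.60 and 6.61 TPM. MYC was higher than 92.0% of tested protein-coding genes in siNAT10 and 94.0% in siControl. In siNAT10 the neighbours MAX, MXI1 and MGA overlapped in pairs, as did MLXIP, MNT and MXD1. In siControl MXI1 and MGA, MGA and MXD1, and MXD1 and MNT overlapped, and the other neighbours were apart. The place of MLX rests on counts that PSMC3IP may share, and that of MXD1 on counts that SNRNP27 may share. TPM levels are not compared between groups here, because the median tested gene stood at -0.2 on their log2 scale, siNAT10 over siControl.

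Among the 10 members, the balance between activator and repressors depended on whether MGA was counted among the repressors. It was taken as a ratio of levels in TPM within a library. MYC over the sum of MXD1, MXD4, MXI1 and MNT was 2.3 and 2.17 in siNAT10, against 2.14 and 2.47 in siControl, so the groups overlapped. With MGA added to that sum, it was 1.6 and 1.52 in siNAT10, against 1.66 and 1.93 in siControl, so it was lower in both siNAT10 libraries. The gap between the nearest libraries was smaller than the spread within either group. MYC over MAX was 4.24 and 4.75 in siNAT10, against 4.46 and 4.07 in siControl, which overlapped. These ratios were formed after the values were seen and are given without a test. Both sums of repressors hold MXD1 counts that SNRNP27 may share. Among family genes outside the 10 members, MXD3, a repressor expressed in S phase, had 80.9 and 84.3 CPM in siNAT10, against 63.6 and 63.5 CPM in siControl (log2 fold change 0.38 ± 0.07, edgeR adjusted p = 1.95e-04). PRELID1, which overlaps MXD3 on the opposite strand, rose by 0.92, and its even share would be 64.4% and 64.9% of the MXD3 count in siNAT10, against 47.0% and 41.6% in siControl. Its part in that rise was not tested. MXD3 was left out of both sums although it had, as counted, 45.35 and 45.57 TPM in siNAT10, against 40.51 and 39.39 TPM in siControl. The sum of MXD1, MXD4, MXI1 and MNT was 44.68 and 44.42 TPM, against 63.7 and 57.28 TPM. Ratios with MXD3 were not formed. MYCL stood at 2.8 and 1.97 CPM in siNAT10, against 2.73 and 3.29 CPM in siControl. MYCN had 16 and 14 counts in siNAT10, against 24 and 12 counts in siControl, and neither passed the test.

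Genes known to be activated by MYC were mostly higher although MYC mRNA was lower. Of 70 genes in this list, all tested, 47 were called higher and 4 lower, with a median log2 fold change of 0.36, against -0.0079 and 19.7% and 20.7% over all tested genes. The nucleolar protein nucleolin (NCL) had 5831 and 6162 CPM in siNAT10, against 2991 and 2828 CPM in siControl. Nucleophosmin (NPM1), a ribosome assembly chaperone, had 4247 and 4589 CPM in siNAT10, against 2156 and 2112 CPM in siControl. The mitochondrial chaperonin genes HSPD1 and HSPE1 and the iron uptake receptor gene TFRC rose by 1.13, 1.11 and 1.04 on the log2 scale, and these 5 genes had edgeR adjusted p-values of at most 1.29e-09. HSPD1 and HSPE1 overlap each other, and NPM1, HSPD1 and HSPE1 have processed pseudogenes that can share reads. The genes called lower were SHMT2, a mitochondrial enzyme of serine breakdown (-0.37 ± 0.07, edgeR adjusted p = 4.83e-04), the nucleoside transporter gene SLC29A2 (-0.32), the cyclin-dependent kinase gene CDK4 (-0.21, overlapping TSPAN31) and the ribosome assembly gene PPAN (-0.20, overlapping PPAN-P2RY11). Only 1 was called lower without siNAT10 replicate 2 or without siControl replicate 2, and 2 without siNAT10 replicate 1 or with DESeq2.

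The E-box was common in the promoters of these target genes. CACGTG was found for 31 of 57 matched genes, 54.4%, against 12.5% of tested protein-coding genes. Of the 31 genes with it, 19 were higher and 1 was lower, with a median log2 fold change of 0.33. Of the 26 matched genes without it, 19 were higher and 1 was lower, with a median of 0.44. Among the 5 leading genes, NCL, NPM1 and TFRC had no match, while HSPD1 and HSPE1, which are read in opposite directions from 1 shared promoter, had the same E-box, shown in capitals.
HSPD1 (chr2:197500327-197500392, minus strand): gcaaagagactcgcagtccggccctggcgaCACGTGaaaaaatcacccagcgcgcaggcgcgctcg
The difference between genes with and without the motif was not tested.

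Genes known to be repressed by MYC were more often lower than higher. Of 11 genes, 9 were tested, 4 were called lower (44.4%) and 1 higher (11.1%), with a median of -0.23. Over all tested genes, 20.7% were lower and 19.7% higher. The cell cycle inhibitor gene CDKN1A had 9.42 and 9.69 CPM in siNAT10, against 24.2 and 24.4 CPM in siControl (log2 fold change -1.35 ± 0.10, edgeR adjusted p = 4.41e-09). The inhibitor genes CDKN2B and CDKN1B fell by 0.63 and 0.44 on the log2 scale and the stress gene GADD45A by 0.33. NDRG4 was higher (0.91 ± 0.21, edgeR adjusted p = 1.43e-03) at under 4 CPM.

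Targets of the MLX branch went both ways. Of 13 genes, 12 were found and 11 tested, of which 4 (36.4%) were called higher and 2 (18.2%) lower. Over all tested genes, 19.7% were higher and 20.7% lower. The median log2 fold change of the list was 0.20. TXNIP, an inhibitor of glucose uptake and the best known target of MLXIP, had 21.3 and 25.1 CPM in siNAT10, against 10.2 and 7.92 CPM in siControl. It rose by 1.35 ± 0.12 (edgeR adjusted p = 6.17e-08), with both siNAT10 libraries above both siControl libraries. Its relative ARRDC4, also a target of MLXIP, had 6.47 and 6.84 CPM in siNAT10, against 2.68 and 2.75 CPM in siControl, and rose by 1.29 ± 0.17 (edgeR adjusted p = 5.22e-06). Both rose in all 12 alternatives, while both sensors fell in the same libraries. The lipid synthesis genes ACLY and ELOVL6 rose by 0.41 and 0.39, and the arrestin gene ARRDC3 was lower (-0.48 ± 0.11, edgeR adjusted p = 1.09e-03). FGF21, a hormone gene, was called lower on 2 and 0 counts in siNAT10, against 12 and 20 counts in siControl. It was not called without siNAT10 replicate 2 (-2.81, edgeR adjusted p = 0.0562). With at least 50 counts in 2 libraries, with halved counts and without siControl replicate 2 it did not pass the filter. In these 4 alternatives 1 gene of the list, ARRDC3, was called lower, and without siControl replicate 1 there were 7 genes higher.

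The promoters of TXNIP and ARRDC4 were searched because carbohydrate response elements are what the sensors bind. The paired motif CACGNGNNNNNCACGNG, searched on both strands, where N is any base, was found in 1 of the windows of TXNIP and in 0.057% of all windows. In no window of the matched members was it found. ARRDC4 held a single CACGTG and no match to the paired motif in its window. Matches are in capitals.
TXNIP (chr1:145996621-145996697, minus strand): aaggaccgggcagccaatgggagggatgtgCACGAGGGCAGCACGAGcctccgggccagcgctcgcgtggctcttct
ARRDC4 (chr15:97960463-97960528, plus strand): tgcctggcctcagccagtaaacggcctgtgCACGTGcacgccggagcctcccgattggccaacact
The TXNIP match began 88 bases before the start site, and the ARRDC4 match began 210 bases before it.

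**Figure D4:**
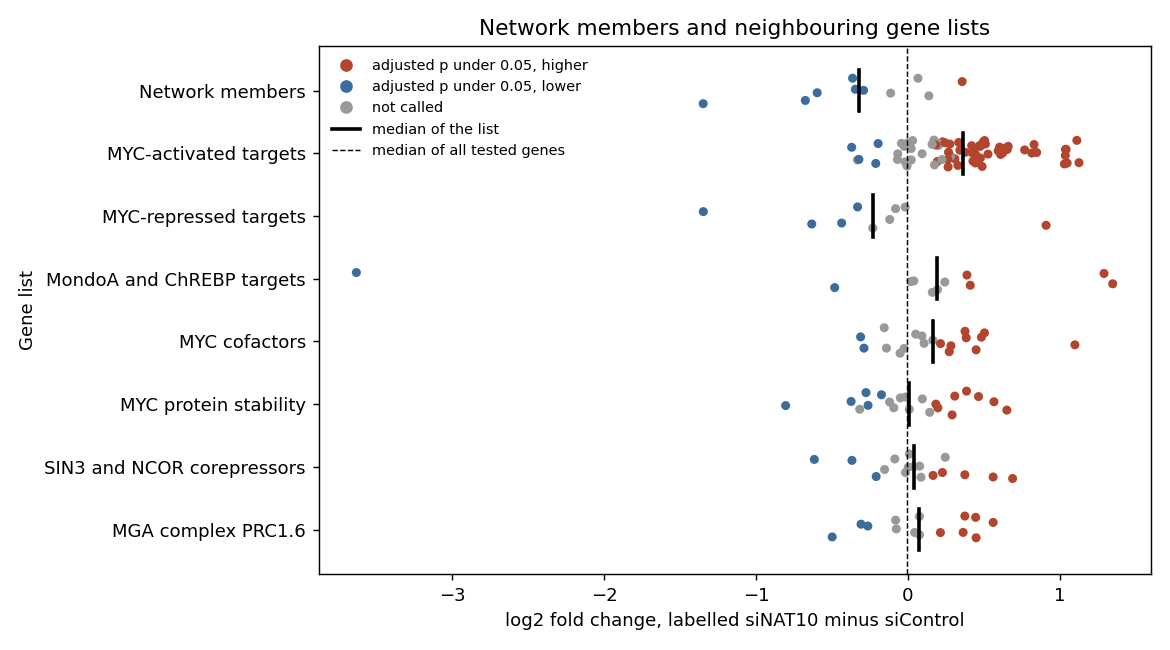
Log2 fold change of each tested gene, siNAT10 minus siControl, for the members and 7 neighbouring lists, with a bar at the median of a list and the median of all tested genes dashed. The members have a median of -0.32, and the MYC-activated targets have a median of 0.36.

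Cofactors of MYC leaned up. Of 19 genes, 9 were called higher (47.4%) and 2 lower (10.5%), against 19.7% and 20.7% over all tested genes. The median log2 fold change was 0.16. LEO1, a subunit of the PAF1 elongation complex that MYC binds, had 224 and 233 CPM in siNAT10, against 111 and 102 CPM in siControl (1.10 ± 0.07, edgeR adjusted p = 2.83e-10). The helicase gene RUVBL1 (overlapping SEC61A1 and EEFSEC), the acetylation scaffold gene TRRAP and the adaptor gene WDR5 rose by 0.51, 0.48 and 0.45. KAT5, an acetyltransferase gene, rose by 0.38 and overlaps RNASEH2C, whose even share would be 70.1% and 56.3% of the KAT5 count in siNAT10, against 64.4% and 77.1% in siControl. The elongation kinase gene CDK9 and the DNA methyltransferase gene DNMT3A were lower (-0.29 and -0.31), of which 1 was called without siNAT10 replicate 1. With libraries scaled by their totals alone, 4 cofactors were called lower. KAT2A, a cofactor called higher, had 1107 and 972 counts in siNAT10, against 1018 and 852 counts in siControl. CTD-2132N18.3, which overlaps it on the same strand, had 4775 and 3834 counts in siNAT10, against 4781 and 5886 counts in siControl. The even share of that row would be 133.2% to 233.4% of the KAT2A count over the libraries. A share above the whole count means that an even spread does not describe this row. Its part in the KAT2A count was not tested.

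Regulators of MYC protein stability went both ways, with 8 of 21 higher (38.1%), 5 lower (23.8%) and a median of 0.01. Over all tested genes, 19.7% were higher and 20.7% lower. Among genes whose products stabilise MYC, the mitotic kinase gene AURKA rose by 0.65, the PP2A inhibitor gene SET by 0.47 and CIP2A, listed as KIAA1524, by 0.39. SKP2 and USP7, which encode a ubiquitin ligase subunit and a deubiquitinase, rose by 0.57 and 0.29. USP37, which encodes another deubiquitinase of MYC, had 19.4 and 19.3 CPM in siNAT10, against 35.1 and 32.5 CPM in siControl (-0.80 ± 0.09, edgeR adjusted p = 7.21e-07), and overlaps VIL1. FBXW7, the ligase subunit that recognises phosphorylated MYC, was lower (-0.26 ± 0.08, edgeR adjusted p = 0.0161), as were the scaffold gene AXIN1 (-0.37) and the ligase genes HUWE1 (-0.17) and TRIM32 (-0.28). Without siNAT10 replicate 2, 2 were called lower. With libraries scaled by their totals alone, 5 were higher and 8 lower. Protein was not measured.

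The corepressors through which MXD proteins, MXI1 and MNT act, SIN3 and NCOR with their deacetylases, also went both ways. Of 17 genes, 5 were higher (29.4%) and 3 lower (17.6%), against 19.7% and 20.7% over all tested genes. The median of the list was 0.04. SIN3A, the scaffold, had 208 and 208 CPM in siNAT10, against 130.2 and 127.5 CPM in siControl (0.69 ± 0.06, edgeR adjusted p = 6.64e-08), and the deacetylase genes HDAC2 and HDAC1 rose by 0.56 and 0.38. The SIN3 subunit gene SUDS3 was lower (-0.62 ± 0.07, edgeR adjusted p = 2.06e-06), as was the scaffold gene NCOR1 (-0.37 ± 0.07, edgeR adjusted p = 2.57e-04, overlapping PIGL). Without siNAT10 replicate 2, and with libraries scaled by their totals alone, 3 were higher.

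In PRC1.6, the Polycomb complex of MGA, 6 of 14 genes were higher (42.9%) and 3 lower (21.4%), with a median log2 fold change of 0.08. Over all tested genes, 19.7% were higher and 20.7% lower. The chromodomain gene CBX3 rose by 0.45 and CBX1 by 0.36. HNRNPA2B1, a splicing factor gene on the opposite strand, shares 368 exon bases with CBX3, and its even share would be 34.0% and 33.4% of the CBX3 count in siNAT10, against 32.8% and 33.2% in siControl. Its part in the CBX3 rise was not tested. HDAC1, HDAC2 and WDR5, which also stand in other lists, were higher. PCGF6, the subunit that defines the complex, had 11.3 and 10.3 CPM in siNAT10, against 12.9 and 17.7 CPM in siControl (-0.50 ± 0.13, edgeR adjusted p = 5.89e-03). The ubiquitin ligase genes RING1 and RNF2 were lower as well (-0.26 and -0.31). None of the 3 was called without siControl replicate 2, and 1 was called without siNAT10 replicate 1 and with DESeq2. L3MBTL2 and E2F6, further subunits of the complex, had values of 0.05 and -0.08 and did not pass the test.

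Genes with the pattern over the 4 libraries most like that of MYC were the chloride channel gene CLIC4, the transcription factor gene ELF1, RAB3IP, an exchange factor gene, and the autophagy gene MAP1LC3B. They had the smallest distances from MYC, 0.0145 to 0.022, among 8323 protein-coding genes of at least 10 CPM, in log2(CPM + 2) after subtracting each gene's mean. Their log2 fold changes ran from -0.32 to -0.28, beside -0.29 for MYC. With 4 libraries such a likeness reflects mainly 1 difference between groups.

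Groups of CPM did not overlap for 9 of 10 members, 7 lower and 2 higher in siNAT10, against 69.5% of all tested genes, 35.4% lower and 34.1% higher. With libraries scaled by their totals alone, the calls over all genes were 2688 higher and 5604 lower, where TMM scaling gave 3951 and 4169. Under that scaling, 7 members were lower and 1 was higher.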

How the data were processed

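The deposited table holds raw counts per gene for 4 libraries, made by the authors. Per the labels' protocols, TRIzol RNA went into a KC Digital mRNA library kit. Per the submitters' processing notes, fastp 0.23.4, STAR 2.5.3a, featureCounts and GRCh38 were used. For the annotation release, the strand setting and any collapsing of PCR copies, the sources used here give nothing. Of counts from 1 to 50, 72.0% to 73.5% were even, as counting mates separately would give. Gene spans of all 10 members equal those of GENCODE 29.

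Counts were filtered with filterByExpr, scaled by TMM and tested with edgeR 4.0.16 in R 4.3.3 (glmQLFit robust, glmQLFTest, two-sided, group only, 2 residual degrees of freedom). TPM used the deposited exon lengths. Alternatives included DESeq2 1.42.0. The members, the lists and the rule for named genes (up to 5 called genes per list and direction with the smallest adjusted p) were chosen with earlier results of these data known. Replicate numbers are not said to pair libraries.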

Additional observations from a re-analysis of the deposited data

How the results depend on the processing

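Over 12 alternatives, 115 of 120 values of the members kept direction and call. The exceptions were MAX without siNAT10 replicate 2 (-0.26, no longer called), MXI1 and MLX without siControl replicate 1 (0.27 and -0.17, newly called), MLX with totals alone (-0.22, newly called) and MXD4 with totals alone, reversed to -0.044. NAT10 also reversed there, to -0.024. The causes were not tested. With totals alone, counts became 4 lower for cofactors, 5 higher and 8 lower for protein stability, and 3 higher for corepressors. With DESeq2, 1 PRC1.6 gene and 2 MYC-activated targets were lower. With at least 50 counts in 2 libraries, and with halved counts, 1 target of the MLX branch was lower, since fewer genes were tested. Leaving out 1 library, where a lone library is assumed to vary like the other group, gave 2895 to 3818 genes higher and 3233 to 3977 lower over all genes, and 1 to 2 members higher and 5 to 7 lower. The ranges were 8 to 10 higher and 1 to 3 lower for cofactors, 6 to 8 and 2 to 5 for stability, 3 to 5 and 2 to 4 for corepressors, 5 to 6 and 0 to 3 for PRC1.6, 4 to 7 and 1 to 2 for the MLX branch, 41 to 50 and 1 to 5 for MYC-activated targets, and 1 to 2 lower for the long noncoding RNAs. The fit with the replicate number as a block called 3997 genes higher and 4257 lower, and the same number of members, 1 higher and 6 lower. The within-group differences of replicates correlated at -0.019 across genes between the groups. Such a correlation cannot show whether libraries with the same number were handled together. On CPM in place of TPM, 14 of 20 ranks of the members moved. Protein-coding genes only left no value for the long noncoding RNAs. Low counts limit MYCN and FGF21 most. Counts were also modest for MYCL (58 to 122), ARRDC4 (102 to 224), PVT1 (188 to 360) and MLXIPL (190 to 649).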
